A study of Mus musculus with 12 samples.

Results

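Neutrophil-type granulocyte genes are transcripts best known from neutrophils, and 9 of them were followed here in eosinophils of the mouse small intestine (SI). The 9 genes are *S100a8*, *S100a9*, *Lcn2*, *Slpi*, *Serpinb1a*, *Retnlg*, *Mmp8*, *Mmp9*, and *Csf3r*. They were chosen by symbol from the 36047 genes of the deposited table, and each symbol matched 1 gene. Of the 9 genes, 7 passed the filter on low values, an average normalized count above 10, and were among the 15249 genes tested. *S100a8* and *Lcn2* did not pass it.

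RNA sequencing covered 3 eosinophil subsets with 4 libraries each, 12 in all. The α4β7+ subset carries the gut-homing integrin α4β7, the CD22+ subset carries the lectin CD22, and the α4β7− CD22− subset carries neither. The study took them as approximately younger, older, and intermediate cells, in that order. All libraries came from wild type C57BL/6J mice on standard chow, labeled as female, whereas the study's text speaks of mice of either sex, and no treatment is named for any group. Each library held eosinophils sorted from a pooled pair of mice, out of the proximal SI lamina propria, gated as live CD45+ CD11b+ SiglecF+ MHCII− Ly6G− cells, so that cells with the neutrophil antigen Ly6G at the surface were gated out. A library therefore stands for pooled animals, and the p-values below measure the spread between libraries. The total of normalized counts in a library was between 14286474 and 16915755, and 3 reads, used as the floor of detection, corresponded to approximately 2.56 to 3.48 normalized counts. That floor covers counting error only. The eosinophil markers *Siglecf* and *Ccr3* were at no less than 6884 and 10103 normalized counts in every library.

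Neutrophils and eosinophils are granulocytes that arise from related bone marrow progenitors and fill their granules with different proteins. Mature neutrophils are known for very abundant *S100a8* and *S100a9* RNA, which encode the subunits of calprotectin, and for secretory and granule proteins such as lipocalin 2, the collagenase MMP8, and the gelatinase MMP9. Several of these genes are also transcribed in other myeloid cells or in epithelium. In bulk samples such as these, fewer cells that make a transcript and less of it per cell cannot be told apart.

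Between α4β7+ and CD22+ eosinophils, 6 of the 7 genes tested were lower in CD22+ and *Csf3r* was higher, where 12.0% of all genes tested were called, 6.39% lower and 5.60% higher. A gene was called at a fold change of at least 1.5 and an adjusted p of at most 0.05. The falls ranged from 2.01-fold for *Mmp9* to 19.3-fold for *Slpi*. *Retnlg* and *Mmp9* were abundant in every library, whereas *S100a8* was at 0 in 11 of 12 libraries. The plot of normalized counts by library shows these levels gene by gene.

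**Figure D1:**
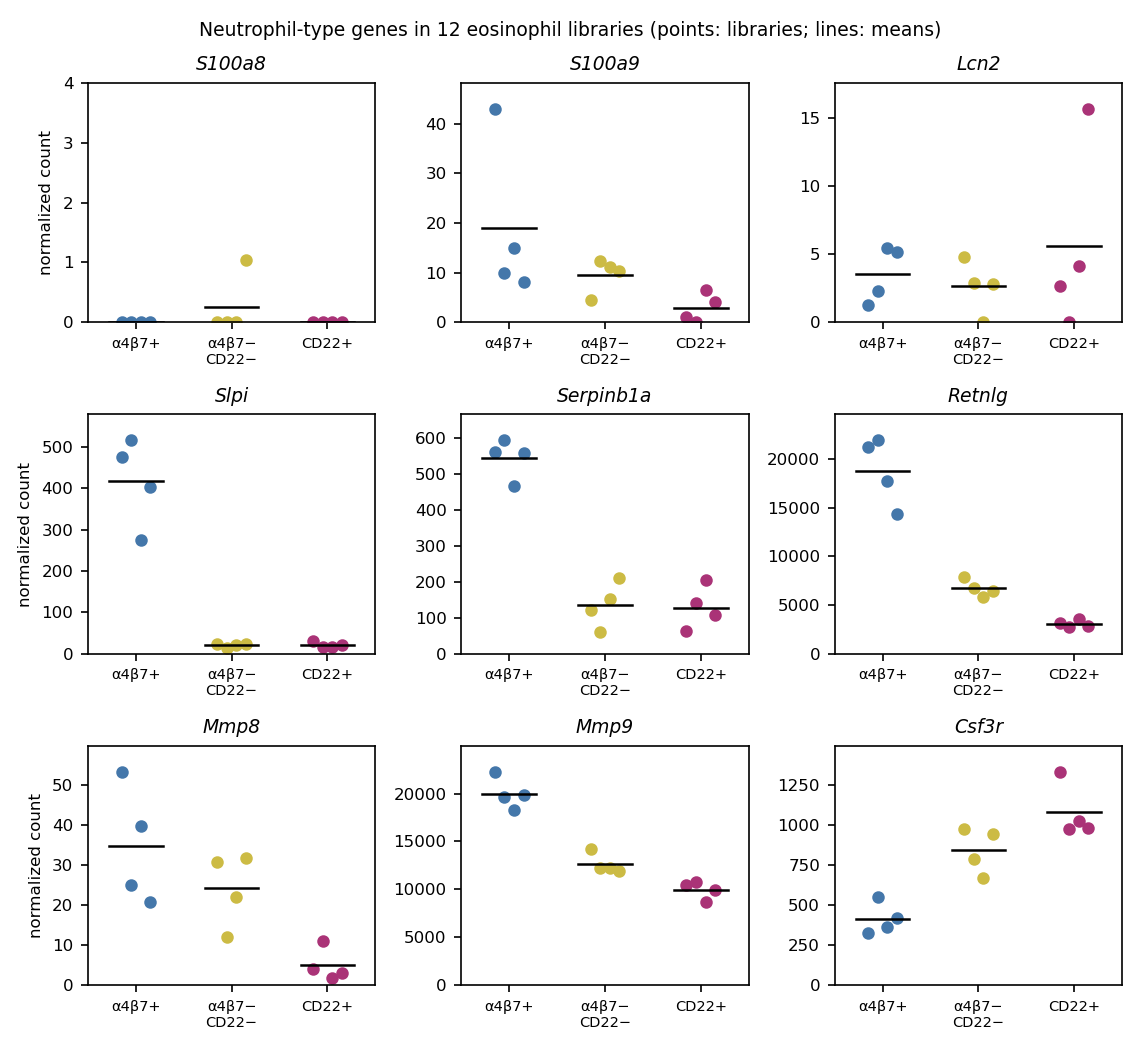
Normalized counts (y axis, linear, starting at 0, with its own range for each gene) of the 9 genes in the 3 subsets (x axis). Each point is 1 of 4 libraries per subset and each line is the subset mean. *Slpi*, *Serpinb1a*, *Retnlg*, and *Mmp9* in α4β7+ lie above all libraries of the other subsets, *Csf3r* in α4β7+ lies below them, and *S100a8* and *Lcn2* stay within 15.7 normalized counts.

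The sequences just upstream of genes in this set are shown because 6 of the genes were lower together in CD22+ and 1 was higher. RefSeq promoter sequences (GRCm38.p6) were matched by symbol for 7 of the 9 genes, and *Mmp9* and *Serpinb1a* had no entry. Windows from 250 bases before to 50 bases after the RefSeq transcription start were searched on both strands. The motifs were TTGCNNAA (C/EBP-type), GAGGAA (PU.1-type), TTCNNNGAA (STAT-type), and a kappa B-type motif. C/EBP and PU.1 proteins are transcription factors of granulocyte development, and STAT proteins act downstream of cytokine receptors. The upstream stretches of 3 genes with lower counts in CD22+ and of *Csf3r* are printed 5′ to 3′, with matches to the C/EBP-type or PU.1-type letters in capitals. *Retnlg* covers chr16:48872358-48872607 on the plus strand, *Slpi* covers chr2:164356508-164356757 on the minus strand, before the RefSeq start but inside the longer gene of GENCODE, *Mmp8* covers chr9:7558179-7558428 on the plus strand, and *Csf3r* covers chr4:126024409-126024549 on the plus strand, where it was ended at the first exon of GENCODE.
Retnlg: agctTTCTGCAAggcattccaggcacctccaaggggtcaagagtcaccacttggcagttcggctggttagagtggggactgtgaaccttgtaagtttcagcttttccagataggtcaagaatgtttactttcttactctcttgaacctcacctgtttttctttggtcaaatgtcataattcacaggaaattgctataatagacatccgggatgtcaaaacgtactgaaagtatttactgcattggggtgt
Slpi: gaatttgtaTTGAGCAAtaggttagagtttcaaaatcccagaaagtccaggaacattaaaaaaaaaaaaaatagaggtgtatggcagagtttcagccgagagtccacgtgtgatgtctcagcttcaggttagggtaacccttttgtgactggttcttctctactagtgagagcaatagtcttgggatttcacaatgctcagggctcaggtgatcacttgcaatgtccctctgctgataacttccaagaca
Mmp8: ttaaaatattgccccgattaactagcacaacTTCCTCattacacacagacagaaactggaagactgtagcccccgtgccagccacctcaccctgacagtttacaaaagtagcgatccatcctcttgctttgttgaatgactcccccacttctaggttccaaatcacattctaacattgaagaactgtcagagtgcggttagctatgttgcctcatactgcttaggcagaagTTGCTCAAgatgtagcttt
Csf3r: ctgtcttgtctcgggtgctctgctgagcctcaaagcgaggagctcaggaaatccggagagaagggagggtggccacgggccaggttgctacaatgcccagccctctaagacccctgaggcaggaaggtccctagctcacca

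The C/EBP-type letters occurred in 5 of the 7 windows (*S100a9*, *Lcn2*, *Slpi*, *Retnlg*, and *Mmp8*), against 10.8% of all 32851 promoters of the table. In *Mmp8* the match began 19 bases before the start, whereas in *Slpi*, *Retnlg*, and *S100a9* it began 241, 246, and 236 bases before it. The PU.1-type letters occurred in 4 of 7 (*S100a8*, *Lcn2*, *Mmp8*, and *Csf3r*), against 28.3% of all promoters. The match of *Csf3r* lay 86 bases before the RefSeq start, within the GENCODE exon and outside the stretch shown. The STAT-type and kappa B-type letters occurred in 0 of 7 windows, against 8.3% and 1.63% of all promoters. These matches describe letters in the windows and carry no test, and binding of a factor was not measured.

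*S100a8* and *S100a9* encode calcium-binding proteins that pair as calprotectin, which withholds zinc and manganese from microbes. The genes are neighbors on chromosome 3, *S100a8* at 90668978 to 90670035 on the plus strand and *S100a9* at 90692632 to 90695721 on the minus strand (GRCm38). *S100a8* was listed at 0 in 11 libraries and at 1.03 normalized counts in α4β7− CD22− library 4, so every library was below the floor and no fold change is given. *S100a9* was at 43.1, 9.81, 15, and 8.06 normalized counts in α4β7+ libraries 1 to 4, at 4.35, 12.4, 11.2, and 10.4 in α4β7− CD22−, and at 0.99, 0, 6.37, and 4.13 in CD22+. The α4β7+ and CD22+ libraries of *S100a9* did not overlap, whereas the α4β7− CD22− libraries overlapped with both.

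*S100a9* was 5.51-fold lower in CD22+ than in α4β7+ (log2 fold change of normalized count + 1 −2.46 ± 0.73 SE, limma adjusted p = 0.0251). It passed the filter, at an average of 10.5, only through α4β7+, where its mean was 19 against 9.59 in α4β7− CD22− and 2.87 in CD22+. The filter was thus not independent of this contrast, and without a filter the adjusted p was 0.0438. The size depended on the pseudocount, being −3.53 with 0.1 and −1.06 with 10. Its fold change was −0.70 ± 0.73 between α4β7− CD22− and α4β7+ (adjusted p = 0.597, and −0.22 without α4β7+ library 1 or −0.40 without α4β7− CD22− library 1) and −1.76 ± 0.73 between CD22+ and α4β7− CD22− (adjusted p = 0.407), neither past the thresholds. The call between CD22+ and α4β7+ was lost without α4β7+ library 1 (−1.98, adjusted p = 0.0872), α4β7+ library 3 (−2.47, 0.0532), CD22+ library 1 (−2.27, 0.0641), or CD22+ library 2 (−1.94, 0.0723). It was also lost when only the compared subsets entered the model (−2.46, adjusted p = 0.0537).

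Library 1 of α4β7+ held the highest *S100a9* count, and it was also highest for *Mmp8* (53.4), for *Ly6g* (10.8), which encodes the antigen used to gate out neutrophils, and for the neutrophil surface antigen gene *Cd177* (25). In the other 11 libraries *Ly6g* was at 3.11 or less. In the same α4β7+ library the granule genes *Ltf*, *Mpo*, and *Prtn3* were at 15.4, 8.42, and 1.03, *Mrgpra2a* was at 7.56, and *S100a8*, *Camp*, *Elane*, and *Ctsg* were at 0. Its *Ltf* count was the lowest of the α4β7+ libraries, with 43, 29, and 42.9 in libraries 2 to 4. *Mpo* was at 25.9, 2.38, and 14.3 in these. *Ngp* was at 30.3 in library 1 and at 29.4, 38, and 28.9 in libraries 2 to 4, and *Mrgpra2b* was at 0 in library 1.

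*Lcn2* encodes lipocalin 2, which binds bacterial siderophores and is stored in neutrophil granules. The gene lies on chromosome 2, at 32384633 to 32388252 on the minus strand. Its counts were 1.23, 2.25, 5.45, and 5.12 for α4β7+, 4.81, 2.9, 0, and 2.79 for α4β7− CD22−, and 2.65, 0, 4.14, and 15.7 for CD22+. The subsets overlapped, 6 of 12 libraries were above the floor, and CD22+ library 4 was the highest. Exact two-sided permutation tests of mean log2(normalized count + 1) gave p = 0.629, 1, and 0.8 for α4β7− CD22− against α4β7+, CD22+ against α4β7+, and CD22+ against α4β7− CD22−, where 4 against 4 libraries allow no p below 0.0286. At this depth no difference in *Lcn2* was detectable.

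*Slpi* and *Serpinb1a* encode inhibitors of the neutrophil serine proteases, *Slpi* a small secreted one and *Serpinb1a* an intracellular serpin. *Slpi* spans 164354070 to 164389095 on the minus strand of chromosome 2. It was at 476, 517, 274, and 404 normalized counts for α4β7+, at 22.7, 12.5, 20.4, and 22.8 for α4β7− CD22−, and at 31, 16.4, 16.1, and 19.9 for CD22+. Every α4β7+ library lay above all others, and the other subsets overlapped. This gene had the largest fold change of the set, 20.3-fold lower in α4β7− CD22− (log2 fold change −4.34 ± 0.29, adjusted p = 2.51e-07) and 19.3-fold lower in CD22+ (−4.27 ± 0.29, adjusted p = 8.20e-08). Between CD22+ and α4β7− CD22− the difference was 0.07, with a 95% interval from −0.55 to 0.70 (adjusted p = 0.973).

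*Serpinb1a*, at 32842092 to 32851185 on the minus strand of chromosome 13, was at 562, 594, 466, and 558 normalized counts for α4β7+, at 122, 60.9, 151, and 211 for α4β7− CD22−, and at 61.9, 140, 204, and 106 for CD22+. As for *Slpi*, the α4β7+ libraries stood above all others and the other subsets overlapped. *Serpinb1a* was 4.35-fold lower in α4β7− CD22− (−2.12 ± 0.35, adjusted p = 0.00084) and 4.61-fold lower in CD22+ (−2.20 ± 0.35, adjusted p = 0.000357) than in α4β7+. The difference between CD22+ and α4β7− CD22− was −0.08 (95% interval −0.84 to 0.68, adjusted p = 0.974). Of the *Serpinb1a* transcript, 22.1% matched the close relatives *Serpinb1b* and *Serpinb1c*, so that reads in those stretches are uncertain.

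*Retnlg* encodes a secreted resistin-like protein and lies on chromosome 16, at 48872621 to 48874496 on the plus strand. Its counts were 21238, 21970, 17762, and 14342 for α4β7+, 7876, 6720, 5847, and 6392 for α4β7− CD22−, and 3134, 2708, 3505, and 2865 for CD22+. No pair of subsets overlapped. *Retnlg* was 2.78-fold lower in α4β7− CD22− than in α4β7+ (−1.48 ± 0.13, adjusted p = 2.65e-06), 6.11-fold lower in CD22+ than in α4β7+ (−2.61 ± 0.13, adjusted p = 3.46e-09), and 2.19-fold below α4β7− CD22− in CD22+ (−1.13 ± 0.13, adjusted p = 0.000344). It was the only gene of the set called in all 3 comparisons.

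*Mmp8* and *Mmp9* encode secreted metalloproteinases of neutrophil granules, the collagenase MMP8 and the gelatinase MMP9. *Mmp9*, at 164940780 to 164955850 on the plus strand of chromosome 2, was at 22296, 19681, 18240, and 19817 normalized counts for α4β7+, at 14243, 12217, 12241, and 11866 for α4β7− CD22−, and at 10434, 10750, 8682, and 9921 for CD22+. The 3 subsets did not overlap. *Mmp9* was 1.58-fold lower in α4β7− CD22− (−0.66 ± 0.08, adjusted p = 8.59e-05) and 2.01-fold lower in CD22+ (−1.01 ± 0.08, adjusted p = 6.77e-07) than in α4β7+. With quantile normalization the first of these was −0.51, below the fold change threshold. The difference between CD22+ and α4β7− CD22− was −0.35 ± 0.08 (adjusted p = 0.0753, fold 1.27), and it was not called.

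*Mmp8*, at 7558456 to 7568485 on the plus strand of chromosome 9, was at 53.4, 25.1, 39.7, and 20.8 normalized counts for α4β7+, at 30.8, 11.9, 22.1, and 31.9 for α4β7− CD22−, and at 3.92, 11, 1.86, and 3.11 for CD22+. The CD22+ libraries lay below all others, although the gap between CD22+ library 2 and the lowest α4β7− CD22− library was less than 1 normalized count. *Mmp8* was 6.53-fold lower in CD22+ than in α4β7+ (−2.71 ± 0.51, adjusted p = 0.0014), with −2.99 at a pseudocount of 0.1 and −1.56 at 10. The 4.6-fold lower level in CD22+ than in α4β7− CD22− missed the threshold (−2.20 ± 0.51, adjusted p = 0.0597), and passed it without CD22+ library 2 (−2.61, adjusted p = 0.0284). Between α4β7− CD22− and α4β7+ the difference was −0.50 ± 0.51 (adjusted p = 0.588), with −0.27 without α4β7+ library 1 and −0.21 without α4β7− CD22− library 2.

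*Csf3r* encodes the receptor for granulocyte colony-stimulating factor (G-CSF), the cytokine that drives neutrophil production, and lies on chromosome 4, at 126024550 to 126044440 on the plus strand. Its counts were 327, 549, 364, and 416 for α4β7+, 976, 785, 666, and 941 for α4β7− CD22−, and 1331, 970, 1021, and 982 for CD22+. Every α4β7+ library lay below all others, and the other subsets overlapped. *Csf3r* was 2.05-fold higher in α4β7− CD22− (1.03 ± 0.17, adjusted p = 0.000576) and 2.62-fold higher in CD22+ (1.39 ± 0.17, adjusted p = 2.09e-05) than in α4β7+. The difference between CD22+ and α4β7− CD22− was 0.36 ± 0.17 (adjusted p = 0.509). Of the *Csf3r* transcript, 66.7% matched other genes, 1600 in all, so that reads in those stretches are uncertain. The longest match was a processed pseudogene on chromosome 19, AC105061.2, which covered 61.5% of the transcript and had 5.18 as its highest count.

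Counted over the set, 5 of 7 genes were called between α4β7− CD22− and α4β7+, 4 lower and 1 higher, where 8.05% of all genes tested were called, 4.35% lower and 3.70% higher. Between CD22+ and α4β7+, 7 of 7 were called, 6 lower and 1 higher, against the 12.0% given above. The count of 7 includes *S100a9*, which passed the filter only through α4β7+. It was 6 without any 1 of α4β7+ libraries 1 and 3 and CD22+ libraries 1 and 2, or with only the compared subsets, and 5 with a filter at 50. These counts cover the genes tested and are a description. Both counts share the α4β7+ libraries. Between CD22+ and α4β7− CD22−, *Retnlg* was called lower, 1 of 7, against 0.603% of all genes, 0.393% lower and 0.210% higher. Libraries did not overlap for 5 of 7 genes between α4β7− CD22− and α4β7+, 4 lower and 1 higher, against 18.8% of all genes, 9.80% lower and 8.96% higher. They did not overlap for 7 of 7 between CD22+ and α4β7+, against 22.9% of all genes, with 11.8% of all genes lower. For CD22+ and α4β7− CD22− these were 3 of 7, *Retnlg*, *Mmp8*, and *Mmp9*, all lower, against 6.37%, 3.72% lower and 2.66% higher. The median log2 fold change over the 7 genes was −0.70, −2.46, and −0.35 in these comparisons in that order, whereas for all 15249 genes it was 0.003, 0.014, and −0.001. The first and second medians over the 7 genes are the values of *S100a9* itself, whose size depended on the pseudocount, and the third is that of *Mmp9*. The plot of fold changes shows that the genes differed in size and, for *Csf3r*, in direction.

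**Figure D2:**
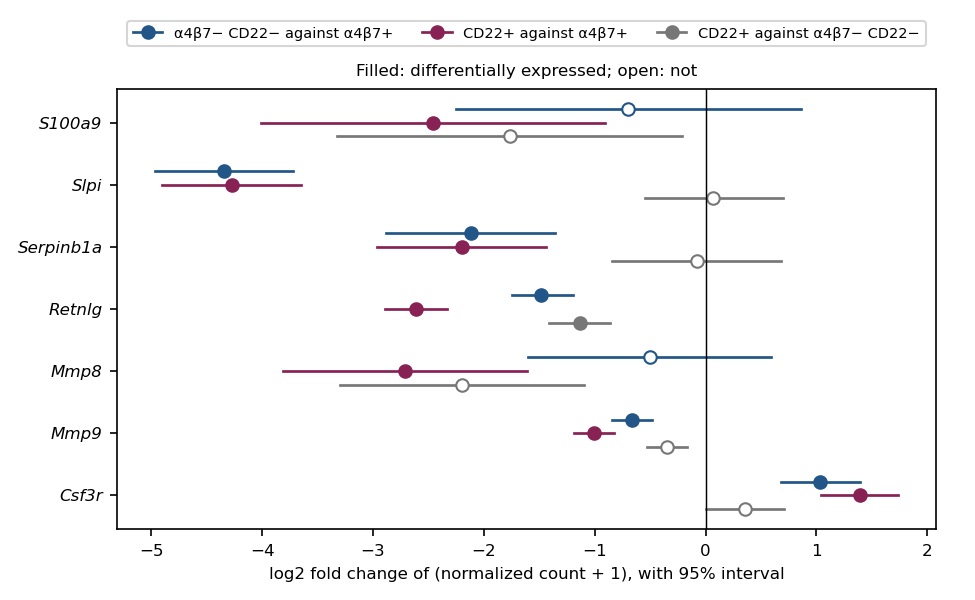
Log2 fold changes of (normalized count + 1) on the x axis for the 7 genes tested (y axis), with 95% intervals from limma as lines. Blue is α4β7− CD22− against α4β7+, purple is CD22+ against α4β7+, and gray is CD22+ against α4β7− CD22−, with filled points for differential expression. *Slpi* and *Serpinb1a* differ from α4β7+ alike in both other subsets, *Retnlg* has filled points in all 3 comparisons, and *Csf3r* lies to the right of 0.

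The lower genes were not all called in the same comparisons. *Slpi* and *Serpinb1a* were already low in α4β7− CD22− and did not differ detectably between that subset and CD22+, whereas the *Retnlg* counts stepped down at each stage. *Mmp9* had non-overlapping subsets in the same order as *Retnlg*, although its second step was not called. For *Mmp8* and *S100a9*, with low counts, the difference from α4β7+ was called in CD22+ and not in α4β7− CD22−, and the difference between CD22+ and α4β7− CD22− was not called for either gene.

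Levels between genes were compared per kilobase of the longest coding transcript. In α4β7+ the mean normalized count per kilobase was 31750 for *Retnlg*, 6302 for *Mmp9*, 477 for *Slpi*, 284 for *Serpinb1a*, 119 for *Csf3r*, 36.6 for *S100a9*, 14.3 for *Mmp8*, and 3.84 for *Lcn2*. In CD22+ the order was *Retnlg* (5148), *Mmp9* (3133), *Csf3r* (309), *Serpinb1a* (66.7), *Slpi* (23.8), *Lcn2* (6.13), *S100a9* (5.53), and *Mmp8* (2.05). *Csf3r* thus stood below *Slpi* and *Serpinb1a* in α4β7+ and above both in CD22+. Neighbors in the CD22+ order from *Lcn2* down had counts near the floor in several libraries, and the order among these 3 was not resolved. Within each of the 11 libraries with *S100a8* at 0, *Retnlg* per kilobase was at least 756-fold to at least 5289-fold higher than *S100a8* at the floor of 3 reads, *Mmp9* was at least 475-fold to at least 1037-fold higher. In the 10 libraries with *Mmp8* above the floor, *Mmp9* per kilobase was 284-fold to 2033-fold higher than *Mmp8*.

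It was also asked whether the genes varied together from library to library within subsets. Deviations from the subset means were correlated over the 12 libraries for the 21 pairs of the 7 genes, with p from exact permutation over all 13824 orders of the libraries within subsets. These orders treat the subsets as independent. Same-numbered libraries of CD22+ and α4β7− CD22− deviated together, as given below, and the p does not account for that. The median Pearson r was 0.08, the range −0.48 to 0.58, and 13 of 21 pairs were above 0. An r of at least 0.5 occurred in 2 pairs, 9.52%, against 8.08% of all pairs of genes tested, whose median r was 0.0. In 0 of 21 pairs was the exact permutation p below 0.05, before or after Benjamini-Hochberg adjustment, by Pearson r or Spearman rho.

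The highest correlation was between *Mmp8* and *Mmp9*, with r = 0.58 (exact permutation p = 0.0818, adjusted p = 0.886), rho = 0.48 (exact p = 0.157, adjusted p = 0.833), and r = 0.51 without the pair of libraries farthest from the median of *Mmp8*. *Slpi* and *Csf3r* followed, with r = 0.55 (exact permutation p = 0.111, adjusted p = 0.886), rho = 0.57 (exact p = 0.082, adjusted p = 0.833), and r = 0.58 without such a pair of libraries. The lowest was between *S100a9* and *Csf3r*, with r = −0.48 (exact permutation p = 0.155, adjusted p = 0.886), rho = −0.43 (exact p = 0.197, adjusted p = 0.833), and r = −0.67 without such a pair. *Retnlg* and *Mmp9*, the abundant pair, had r = 0.16. Other values rested on few libraries. Without α4β7+ library 1 and CD22+ library 2, r moved from −0.37 to −0.90 for *S100a9* with *Mmp9* and from −0.15 to −0.75 for *S100a9* with *Slpi*. Without α4β7+ library 3 and α4β7− CD22− library 2 it moved from 0.05 to −0.78 for *Slpi* with *Serpinb1a*. Points of such a correlation share their library and its scaling.

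**Figure D3:**
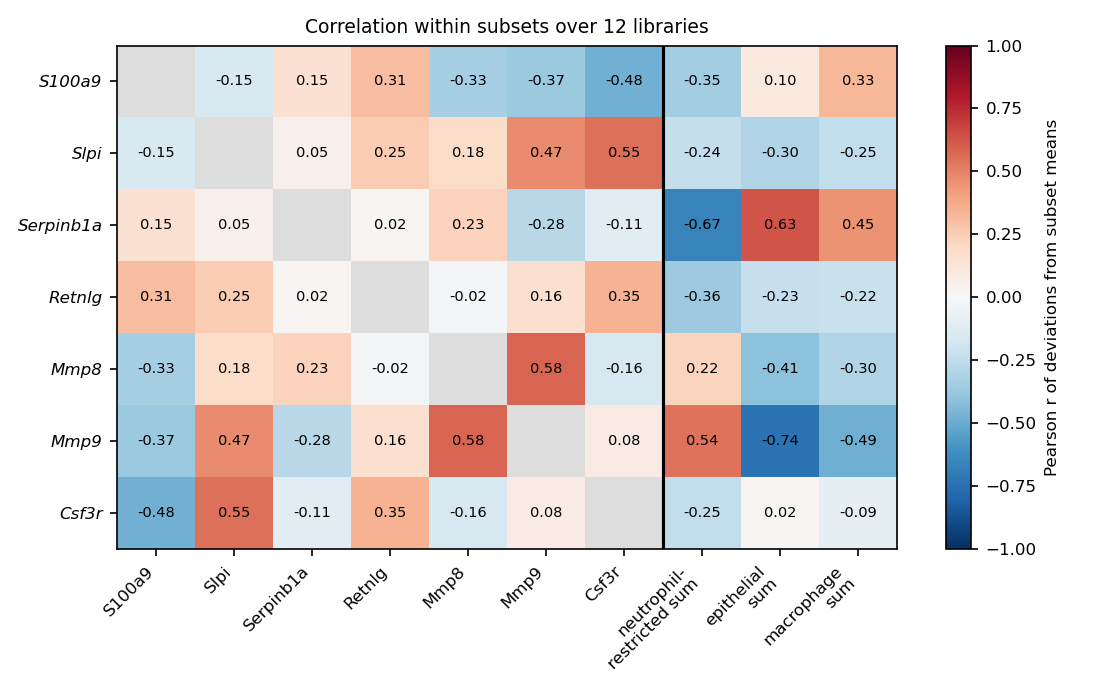
Pearson r (color and number) between deviations from the subset means of log2(normalized count + 1) over 12 libraries, for the 7 genes tested (both axes) and, right of the line, for each gene with the summed count of neutrophil-restricted, epithelial, and macrophage genes. Gray squares on the diagonal hold no value. The pair values lie between −0.48 and 0.58 without a block of high r, and the extremes right of the line are −0.74 for *Mmp9* with the epithelial sum and 0.63 for *Serpinb1a* with the same sum.

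Genes more restricted to neutrophils were then read in the same libraries. Of a list of 20 such genes 19 matched, and 7 passed the filter and are thus also expressed in these eosinophil samples. The granule genes among them differed in level. *Ngp* and *Ltf*, the lactoferrin gene, were above the floor in 12 of 12 libraries, at 28.9 to 154 and 7.34 to 43 normalized counts, and *Mpo*, which encodes myeloperoxidase, was above it in 10 of 12, at 2.38 to 25.9. Others were at or near 0. *S100a8*, the primary granule protease genes *Elane*, *Prtn3*, and *Ctsg*, the cathelicidin gene *Camp*, and the stefin genes *Stfa1*, *Stfa2*, *Stfa2l1*, and *Stfa3* make 9 genes and 108 values, of which 97 were 0 and 1 was above the floor, a *Ctsg* count of 6.15 in α4β7+ library 2. These 9 were picked after their values were seen. Their summed count ranged from 1.03 to 6.15 for α4β7+, from 0 to 4.03 for α4β7− CD22−, and from 0 to 1.97 for CD22+. Genes that every cell uses were far from 0 in all libraries, the lowest being *Hprt* at 500.

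The 7 neutrophil-restricted genes that passed the filter moved in both directions. Against α4β7+, 4 were higher and 1 lower in α4β7− CD22−, and 4 were higher and 2 lower in CD22+, where 8.05% and 12.0% of all genes tested were called. The count of 5 in α4β7− CD22− was 4 with a pseudocount of 10, with a filter at 50, with only the compared subsets in the model, or without any 1 of α4β7+ libraries 2, 3, and 4 and α4β7− CD22− libraries 2 and 4. By contrast, 0 of 7 were called between CD22+ and α4β7− CD22− by limma, although 4 of them had an unadjusted p below 0.05. *Cxcr2*, a receptor for neutrophil-attracting chemokines, averaged 780 ± 66.6 normalized counts for α4β7+, 1338 ± 102 for α4β7− CD22−, and 1772 ± 251 for CD22+ (SD, n = 4). The granule protein gene *Ngp* averaged 31.6 ± 4.27, 106 ± 20, and 143 ± 12.9, and *Mrgpra2b* averaged 9.08 ± 7.73, 82.5 ± 17.7, and 162 ± 37.7. *Padi4*, which encodes a histone-citrullinating enzyme, averaged 1392 ± 376, 118 ± 20.7, and 85.2 ± 34.9, and *Itgb2l*, an integrin chain gene, averaged 894 ± 212, 667 ± 125, and 429 ± 17.9. The fourth higher gene, *Mrgpra2a*, averaged 18.9 over all libraries and is named because the count is small. It passed the filter only through CD22+, with means of 1.89 for α4β7+, 14.2 for α4β7− CD22−, and 40.7 for CD22+. The filter was thus not independent of its calls. *Mrgpra2a* and *Mrgpra2b* are close relatives, so the split of reads between them is uncertain. *Ltf* was not called in any comparison.

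*Csf3r* and *Cxcr2*, receptors that act on neutrophils, were thus both higher in α4β7− CD22− and CD22+ than in α4β7+, by 1.03 and 0.78 on the log2 scale in α4β7− CD22− and by 1.39 and 1.17 in CD22+. *Padi4* fell by 3.52 in α4β7− CD22− and fell by 4.07 in CD22+. The summed count of the neutrophil-restricted list ranged from 2836 to 3379 for α4β7+, from 2166 to 2629 for α4β7− CD22−, and from 2359 to 2907 for CD22+. *Padi4*, *Itgb2l*, and *Cxcr2* made up 84.5% to 97.3% of this sum in a library, so it mostly follows these 3 genes and not those at or near 0. Its deviations from the subset means had a median r of −0.25 with those of the 7 genes, from −0.67 for *Serpinb1a* (exact permutation p = 0.0422, adjusted p = 0.295 over 21 relations) to 0.54 for *Mmp9* (exact permutation p = 0.109, adjusted p = 0.572). Their rho values were −0.62 (exact p = 0.0783, adjusted p = 0.548) and 0.48 (exact p = 0.17, adjusted p = 0.655), and r without the pair of libraries farthest from the median was −0.52 and 0.37.

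**Figure D4:**
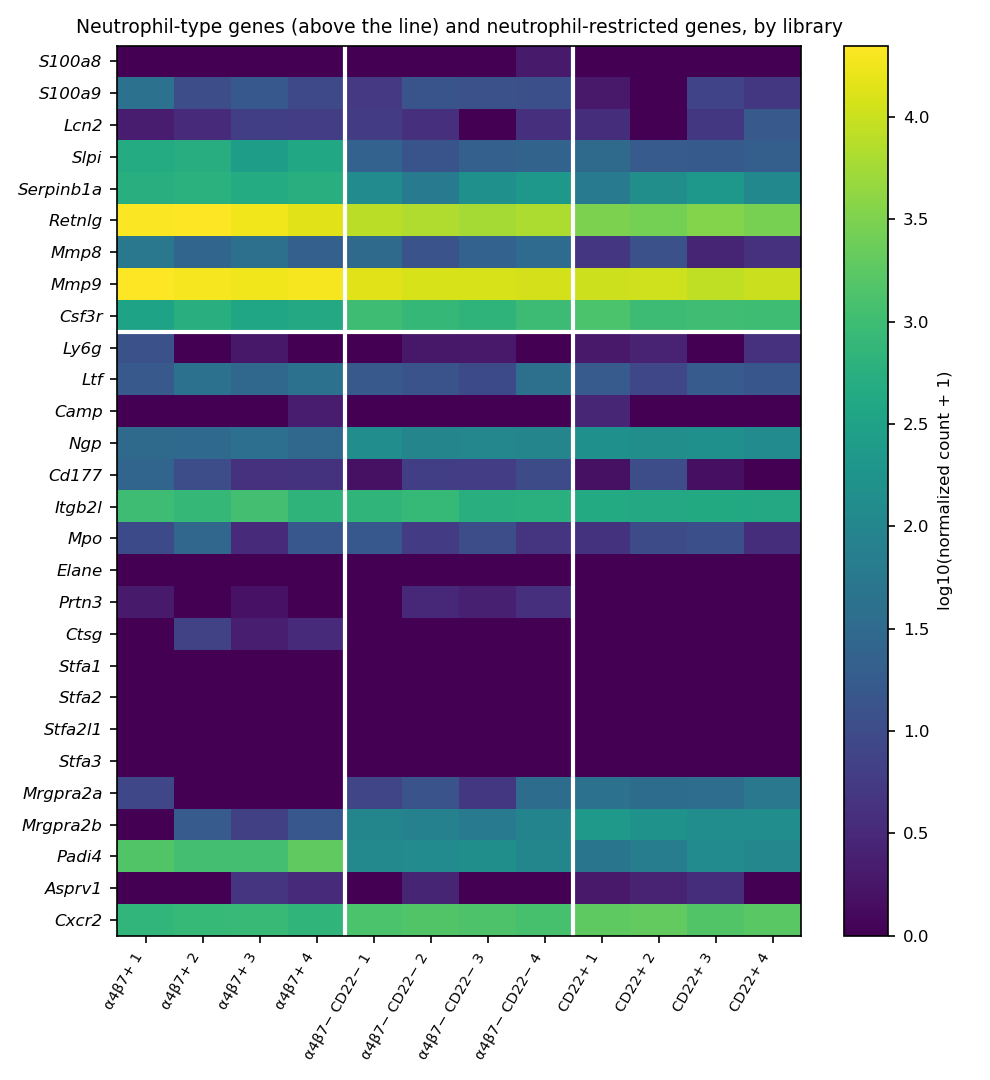
Log10(normalized count + 1) as color for the 9 neutrophil-type genes (above the horizontal line) and 19 neutrophil-restricted genes (below it), in 12 libraries (x axis, subset and library number) split by subset. *Retnlg* and *Mmp9* are bright in all libraries, whereas *S100a8*, *Elane*, and the stefin genes are dark, and *Padi4* and *Ngp* change between α4β7+ and the other subsets in opposite directions.

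Markers of other cells that the sort could hold were read beside these genes. Epithelial markers bear on *Slpi*, *Lcn2*, and *Serpinb1a*, which mucosal epithelium can also transcribe. Of 20 epithelial markers 19 matched and were tested, and 0 were called lower in any comparison, while *Cdh17* and *Olfm4* were called higher in α4β7− CD22− and in CD22+ than in α4β7+. Most markers nonetheless had a lower estimate than in α4β7+, the direction of *Slpi* and *Serpinb1a*. These were 17 of 19 in α4β7− CD22− (median log2 fold change −0.57) and 14 of 19 in CD22+ (median −0.53), and 2 and 5 markers had an unadjusted p below 0.05 in either direction. Without *Cdh17* and *Olfm4*, left out after their values were seen, the summed count of the list was 4710 to 9829 for α4β7+, 3262 to 6863 for α4β7− CD22−, and 2630 to 10926 for CD22+, so the subsets overlapped. Within subsets, the sum of the whole list correlated with *Serpinb1a* (r = 0.63, exact permutation p = 0.0275, adjusted p = 0.289) and inversely with *Mmp9* (r = −0.74, exact permutation p = 0.0202, adjusted p = 0.289). The rho values were 0.50 (exact p = 0.127, adjusted p = 0.655) and −0.68 (exact p = 0.0341, adjusted p = 0.548), and r without the pair of libraries farthest from the median was 0.39 and −0.74. Neither passed the adjustment, and the part of epithelial RNA in these levels was not tested. The whole sum includes *Cdh17* and *Olfm4*, at 7331 ± 580 and 1697 ± 247 (SD) in CD22+, where the median sum was 14075. The sum without them was not used for these correlations.

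Macrophage and monocyte markers, 13 of 13 tested, summed to between 2834 and 4774 in all libraries with overlapping subsets, and 1 gene was called, *Cd68*, higher in α4β7− CD22− and in CD22+ than in α4β7+. The r of the 7 genes with that sum ranged from −0.49 to 0.45, and 0 had an exact permutation p below 0.05. *Csf1r* and *Cd68* were the most abundant genes in it, averaging 1692 and 576 normalized counts over all libraries. Of 9 B and plasma cell markers, 0 were called by limma in any comparison, and 0 had an unadjusted p below 0.05. Their summed count was nonetheless high, at 26248 to 56890 for α4β7+, 18820 to 56705 for α4β7− CD22−, and 26829 to 59498 for CD22+. Most abundant were the immunoglobulin genes *Igha*, at 8282 to 28536 normalized counts, and *Igkc*, at 6430 to 22589. The part of B and plasma cell RNA in these libraries was not tested. T cell and ILC markers, 9 of 10 matched and tested, had 3 lower in α4β7− CD22− than in α4β7+ (*Cd3e*, *Cd8a*, and *Il7r*) and 0 called by limma in the other comparisons, where 0 and 3 had an unadjusted p below 0.05 against α4β7+ and α4β7− CD22−. Of 10 mast cell and basophil markers, *Kit* was tested and was not called. Eosinophil markers, 12 of 12 tested, were also lower in part, 6 in α4β7− CD22− and 9 in CD22+ against α4β7+ (all genes tested, 4.35% and 6.39%), among them *Alox15*, at 30556 ± 2877 in α4β7+ and 11077 ± 832 in CD22+. *Siglecf*, part of the gate, was not called in any comparison.

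Genes that neutrophils share with other myeloid cells gave 22 tested of 30. Against α4β7+, 5 were lower and 2 higher in α4β7− CD22−, and 9 were lower and 3 higher in CD22+. Of all genes tested, 4.35% and 6.39% were called lower in these comparisons and 3.70% and 5.60% higher. The 9 include *Clec4d*, which passed the filter, at an average of 12.2, only through α4β7+. Its mean there was 21.9, against 8.88 for α4β7− CD22− and 5.74 for CD22+. The filter was thus not independent of the *Clec4d* call. The lower genes included *Clec4e*, which encodes the pattern recognition receptor Mincle (mean normalized counts ± SD of 792 ± 158 for α4β7+, 76.1 ± 23.5 for α4β7− CD22−, and 15.2 ± 6.79 for CD22+, and in this order below), *Acod1*, which encodes the itaconate-producing enzyme (1241 ± 226, 254 ± 12.1, and 113 ± 51.7), and *Pglyrp1*, a peptidoglycan-binding protein gene (842 ± 58.2, 410 ± 36.9, and 325 ± 43.4). The higher genes included *Il1b* (17294 ± 2297, 30634 ± 4515, and 33447 ± 5700) and the decoy receptor gene *Il1r2* (4384 ± 1378, 8623 ± 1368, and 6774 ± 883). Between CD22+ and α4β7− CD22−, *Clec4e* and *Acod1* were lower and the lysozyme gene *Lyz2* higher. The abundant genes of this list included the oxidase subunit gene *Ncf1* and the cytokine gene *Il1b*, and *Ncf1* was lower in CD22+ than in α4β7+ (−0.72 ± 0.06, adjusted p = 7.61e-07).

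Receptors, ligands, and inhibitors that act with the 9 proteins made a list of 18, of which 13 were tested. Between α4β7− CD22− and α4β7+, 0 were called by limma and 5 had an unadjusted p below 0.05, between CD22+ and α4β7− CD22− these numbers were 0 and 2, and *Csf2rb2*, a cytokine receptor chain, was called lower in CD22+ than in α4β7+ (−0.79 ± 0.10, adjusted p = 4.91e-05). Below the fold change threshold, *Jak2*, a kinase that carries cytokine receptor signals, differed by 0.34 and 0.47 from α4β7+ in α4β7− CD22− and CD22+ (adjusted p = 0.00203 and 6.94e-05). *Timp2*, an inhibitor of metalloproteinases, differed by −0.58 and −0.52 (adjusted p = 0.0249 and 0.0307). *Stat3*, which acts downstream of the G-CSF receptor, was at 4426 ± 554, 4395 ± 381, and 4802 ± 295 and was not called.

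Paralogs of the 9 genes gave 20 tested of 34, and S100 genes were the most frequent among those called. *S100a10* fell in all 3 comparisons, with 1329 ± 156, 444 ± 27.3, and 261 ± 44.8 normalized counts. *S100a6* was at 144 ± 25.8, 22.2 ± 9.8, and 17 ± 8.3, and was lower in both subsets than in α4β7+. *S100a11* and *S100a13* were called lower in CD22+ than in α4β7+ (−0.71 ± 0.11 and −0.86 ± 0.20), as was the serpin gene *Serpinb2* (−0.84 ± 0.14). In total, 3 paralogs were lower in α4β7− CD22− and 7 in CD22+ against α4β7+, where 4.35% and 6.39% of all genes tested were called lower, and *Serpinb9*, an inhibitor of granzyme B, was the 1 higher gene, in CD22+ (0.65 ± 0.22, adjusted p = 0.05). The metalloproteinase genes *Mmp12* and *Mmp14*, at 135 and 115 normalized counts on average, were not called.

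For each gene tested, the genes with the most similar deviations within subsets were found among those with an average count of at least 50. *Retnlg*, *Mmp9*, *Slpi*, *Serpinb1a*, and *Csf3r* passed that minimum, and none of these was among the 3 nearest to another gene of the set. The nearest gene was *Manbal* for *Retnlg* (r = 0.91), *2700099C18Rik* for *Mmp9* (r = 0.96), *Hypk* for *Csf3r* (r = 0.96), *Abitram* for *Slpi* (r = 0.91), *Ttc7* for *Mmp8* (r = 0.92), *Ccdc34* for *S100a9* (r = 0.87), and *Igkv9-120* for *Serpinb1a* (r = 0.90), each over 12 libraries. *Igkv9-120* is an immunoglobulin gene. These are the highest of many correlations and are given as a description.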

How the data were processed

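The deposited signal values are normalized counts that the authors obtained with DESeq2 from Kallisto estimates. The submitters' processing notes name Trimmomatic 0.39, kallisto 0.46.1, and DESeq2 1.38.2, and the builds GRCm38 and mm10. Stranded total RNA libraries were made from 3 ng of RNA. All columns of per-library values were matched to a library. Whole reads could not be recovered, since 30.6% to 64.6% of the low values of a library lay within 5% of a whole number of reads, so no count model was used.

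Genes with an average normalized count above 10, the minimum of the study's methods, were tested with limma 3.58.1 (R 4.3.3) on log2(normalized count + 1), with a variance trend and all 12 libraries in 1 model of the 3 subsets. Adding 1 shrinks the fold changes of low genes. Calls required a fold change of at least 1.5 and, after Benjamini-Hochberg adjustment over all genes tested in a comparison, a p no higher than 0.05, the study's thresholds. *S100a8* and *Lcn2* were compared with exact permutation tests. Correlations used deviations from subset means, and their p was adjusted over 21 pairs or 21 relations with marker sums. Scripts were tested on simulated data. Positions and transcripts were taken from GENCODE for GRCm38, promoters from a RefSeq table (GRCm38.p6), and shared stretches from BLAST 2.17.0 at 90% identity over at least 50 bases. Python 3.11.15, pandas 2.3.3, numpy 2.4.6, and matplotlib 3.10.9 were used.

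The members and the 10 other gene lists were chosen with earlier results of these data known. Besides the 9 genes, the genes named are the 3 most abundant of a list, *Ly6g*, list genes called with an average of at least 50, and the 3 most similar to each gene. Other names were added after their values were seen. Libraries with the same number in CD22+ and α4β7− CD22− deviated together from their subset means (r of 0.135, 0.161, 0.177, and 0.203), and all 8 correlated best with their own number. This hints at a pairing of these libraries that the labels do not give, and a model with the number as a block was an alternative. Other alternatives were pseudocounts of 0.1 and 10, no filter or a filter at 50, scaling by the 75th percentile, quantile normalization, no variance trend, the adjusted p alone, only the compared subsets, rank correlation, and each library left out in turn.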

Additional observations from a re-analysis of the deposited data

Results flagged for a closer look

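In groups of 4 libraries, a library was singled out when its gap to the nearest other, divided by the range of the group, exceeded Dixon's 95% critical value. Over the 9 genes and 3 subsets 25 groups were tested, and 3 had such a library, where chance alone can also give such cases. The other 2 groups, *S100a8* in α4β7+ and in CD22+, had all libraries at 0 and no range. *S100a8* was at 1.03 normalized counts in α4β7− CD22− library 4, below the floor, with the other 3 at 0 (ratio 1.0, as any count beside 3 at 0 would give). *Mmp9* was at 14243 normalized counts in α4β7− CD22− library 1, above the other 3 (ratio 0.842). *Csf3r* was at 1331 in CD22+ library 1, above the other 3 (ratio 0.858). The calls of *Mmp9* and *Csf3r* did not change when these libraries were left out.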

How the results depend on the processing

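Of 456 recomputed fold changes of the 7 genes tested, 444 kept their direction and their side of the thresholds, 6 lost a call, 1 gained one, and 5 changed sign, all 5 for uncalled differences. *S100a9* between CD22+ and α4β7+ lost its call in 5 settings and *Mmp9* between α4β7− CD22− and α4β7+ in 1, as given above, and the cause was not tested. The number of genes called between CD22+ and α4β7− CD22− ranged from 1 to 2 with libraries left out, being 2 without CD22+ library 2, where *Mmp8* passed. With libraries left out, uncalled differences whose sign changed were those between CD22+ and α4β7− CD22− of *Slpi* (−0.13 to 0.17) and *Serpinb1a* (−0.42 to 0.22), and those of *Lcn2* (−0.74 to 0.10 for α4β7− CD22− against α4β7+, −0.63 to 0.72 for CD22+ against α4β7+, and −0.20 to 1.16 for CD22+ against α4β7− CD22−). With a pseudocount of 0.1 the difference of *Lcn2* between CD22+ and α4β7+ was −0.58. A filter at 50 left *S100a9* and *Mmp8* untested. Over all genes, the adjusted p alone gave 2265, 3223, and 164 calls against 1228, 1829, and 92, and the model without a variance trend gave 54 in the last comparison.

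In the model with a replicate block, 5, 7, and 1 of the 7 genes were called in the 3 comparisons, as without it, and no call of a member changed. The adjusted p of *Mmp9* between CD22+ and α4β7− CD22− was then 0.028, at the same fold of 1.27. The median r of the genes with the neutrophil-restricted sum was −0.58 with the block against −0.25 without it, and 0 relations passed in both. In the comparisons with α4β7+, same-numbered libraries correlated at −0.059 to 0.182, and 6 of 8 and 4 of 8 correlated best with their own number, which did not establish a pairing. Counts near the floor limit *S100a8*, *Lcn2*, *S100a9*, and *Mmp8*.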
